A study of Mus musculus with 8 samples.

Results

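The KCl response of MGE cultures was compared with that of CTX cultures, gene by gene, from the length of genome called as acetylated at histone H3 lysine 27 (H3K27ac). All 8 libraries entered the comparison. For each protein-coding gene the bases covered by peaks within the gene span and 20 kb to each side were divided by the total called in that library, giving called bp per Mb called. The response of a culture was its KCl mean minus its unstimulated mean of log2(bp per Mb + 1), and the difference of responses was the MGE response minus the CTX response. Of 21631 genes, 15191 were tested and 6440 were left out because no library had 1 kb called in their window.

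The libraries came from primary neuronal cultures of C57/BL6 mouse embryos, with 2 libraries in each of 4 groups: MGE with KCl, MGE unstimulated, CTX with KCl and CTX unstimulated. All cultures, the unstimulated ones included, had been silenced overnight from day 6 in vitro with 1 µM tetrodotoxin (TTX), which blocks sodium channels, and 100 µM D-AP5, which blocks NMDA receptors. On day 7 the KCl cultures were depolarised with 55 mM KCl for 2 h and the others were left untreated. Chromatin was precipitated with the H3K27ac antibody ab4729. CTX titles give embryonic day 14, while the source field gives embryonic day 16 for all 8 libraries and the stated cell type is cortical neurons even for the MGE libraries. What was kept separate between biological replicates is not stated, so p-values measure only how much these libraries varied, which may be technical.

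H3K27ac marks active promoters and enhancers, and it is written by the acetyltransferases CBP and p300. Raised extracellular KCl depolarises neurons and opens voltage-gated calcium channels. Calcium then acts through kinases on factors such as CREB, SRF and MEF2, which switch on immediate early genes, and the factors those genes encode go on to late genes that differ between cell types. The medial ganglionic eminence (MGE) of the embryonic forebrain is the source of most somatostatin and parvalbumin interneurons, whereas cortical cultures consist largely of glutamatergic projection neurons.

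The lists held 36035 to 66827 peaks and 21.1 to 44.7 Mb, and the read depth behind them is unknown. Absence from a list is therefore not absence of acetylation. Within a group the 2 libraries shared 47.4% to 87.1% of their called bases, the share depending on which library it is taken over. Peak names in both MGE libraries numbered 1 have another form than those of the other 6 libraries. Some markers separated the cultures before stimulation: 11 of 13 MGE and GABAergic markers had more called length in MGE unstimulated cultures than in CTX unstimulated cultures, and 5 passed the test as higher, as did 4.94% of all genes. All 8 cortical glutamatergic markers tested had less, and 4 passed as lower, as did 6.62% of all genes. Lhx6, a factor of MGE-derived interneurons, had 169 and 122 bp per Mb in MGE KCl libraries and 239 and 187 in MGE unstimulated libraries, against 0 and 0 in CTX KCl libraries and 0 and 6.68 in CTX unstimulated libraries. Neurod6, a factor of projection neurons, had no called base in any MGE library and 33.8 to 88.8 bp per Mb in the CTX libraries. Other markers did not separate the cultures. Gad1 had 82.6 and 58.1 bp per Mb in MGE unstimulated and 89.7 and 90.0 in CTX unstimulated libraries, and Sox6 was also slightly lower in MGE. Dlx1, Dlx2, Dlx5, Dlx6 and Slc32a1 differed by 0.15 to 0.47 on the log2 scale and did not pass. Slc17a7, a cortical glutamatergic marker, had 32.7 to 43.0 bp per Mb in the MGE libraries. The cultures were bulk samples, so fewer cells of a type and less acetylation per cell cannot be told apart.

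The difference of KCl responses passed the test at 4 genes, a number that depended on single libraries and on the model. With limma and Benjamini-Hochberg adjustment over all 15191 genes, 4 genes (0.0263% of those tested) had a higher response in MGE and 0 genes (0.0%) a lower one at an adjusted p under 0.05. Without adjustment 485 genes (3.19%) were higher and 434 genes (2.86%) lower at p under 0.05, which is 6.05% in all. The 4 genes lie at 3 places in the genome: Nr4a2 with the overlapping gene model LOC105244150, Sv2b and 4930447A16Rik. Leaving out CTX KCl replicate 1, CTX KCl replicate 2 or MGE KCl replicate 1 gave 0 genes in all, leaving out CTX unstimulated replicate 2 gave 144, and limma without its variance trend gave 171. With 2 libraries per group a small number of calls does not show that few genes differed. All 4 had no called base in either MGE unstimulated library, so their fitted log2 values depend on the added constant of 1 bp per Mb and are not bounds on a fold. Libraries that are both at 0 also show no spread between them, and this enters the pooled spread of the gene. Standard errors and adjusted p of such genes therefore depend on the peak threshold too, here and wherever a group has no called base.

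Across genes the difference of responses had a median of -0.07 (log2 scale), quartiles of -0.38 and 0.28, and a 5th to 95th percentile range of -1.44 to 1.84. It was positive at 6600 genes and negative at 8591. Its standard deviation over genes was 1.11, against 1.01 computed from the spread between the 2 libraries of each group alone, a ratio of 1.10. The SD of the responses over genes was 1.05 in MGE and 0.87 in CTX, against 0.77 and 0.65 from the spread between replicates, so the ratios of 1.36 in MGE and 1.33 in CTX were close. Between the cultures, which share no library, the responses had a Pearson r of 0.34 and a Spearman rho of 0.38 over 15191 genes, which are not independent replicates and whose windows overlap a neighbour's window in 85.8% of cases.

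**Figure D1:**
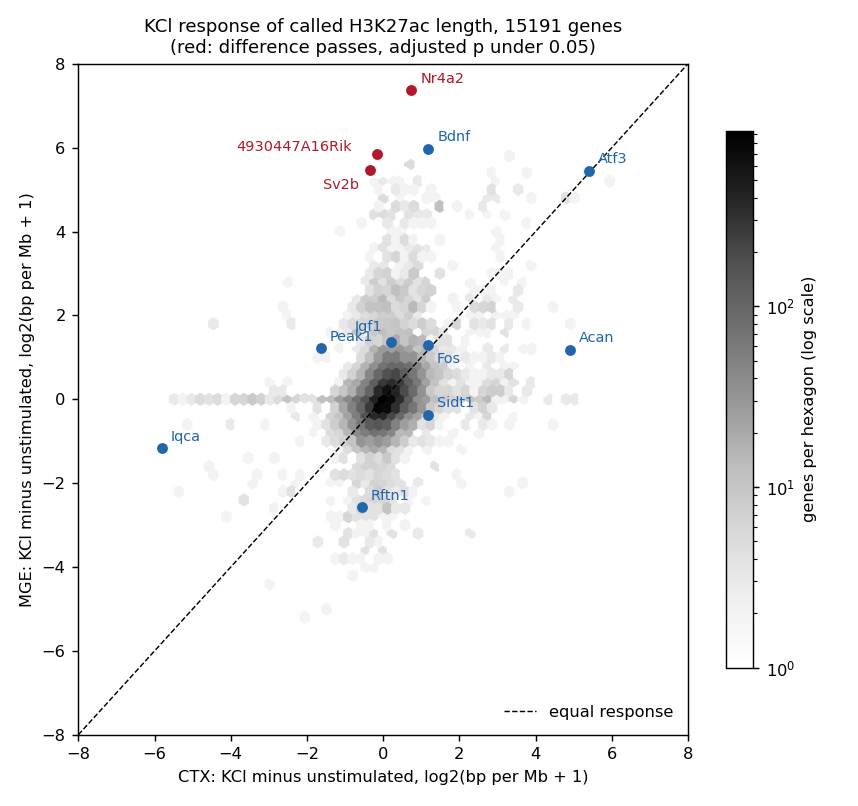
KCl response in MGE (vertical axis) against KCl response in CTX (horizontal axis), both as KCl minus unstimulated log2(bp per Mb + 1), for 15191 genes as hexagons shaded by the number of genes on a log scale. Most genes lie near 0 on both axes, Fos and Atf3 lie near the dashed line of equal response, and Nr4a2, Sv2b and 4930447A16Rik (red) lie far above it.

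The plot of the 2 responses shows a dense centre with a horizontal and a vertical arm, which hold genes with values far from 0 in one culture and near 0 in the other. Windows with little called length were the most variable. Where the mean called length was under 1 kb (2742 genes) the SD of the difference was 2.00, against 1.80 from the spread between replicates. Where it was over 10 kb (192 genes) these values were 0.36 and 0.32. At 1169 genes (7.7%) at least one group had no called base in either library, most often MGE unstimulated with 842 genes, followed by MGE KCl with 515. The MGE lists were also shorter: 23.0 and 21.1 Mb in MGE unstimulated and 21.5 and 32.0 in MGE KCl. CTX unstimulated lists held 23.5 and 42.9 Mb and CTX KCl lists 28.5 and 44.7. The part of list length in these counts was not tested.

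Library by library, without a model, the differences were compared as follows. At 1300 genes (8.56%) each of the 4 pairings of a KCl with an unstimulated library in MGE gave a higher difference than each of the 4 in CTX, and at 1447 genes (9.53%) each gave a lower one. In MGE both KCl libraries lay above both unstimulated libraries at 3442 genes (22.7%) and below at 3058 (20.1%), against 3560 (23.4%) and 2003 (13.2%) in CTX. At 1473 genes they lay above in both cultures, which is 42.8% of the MGE genes and 41.4% of the CTX genes. The cultures had opposite directions at few genes: 188 (1.24%) lay above in MGE and below in CTX, and 343 (2.26%) lay below in MGE and above in CTX.

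Tested within each culture, KCl raised the called length at 199 genes (1.31%) in MGE and at 18 genes (0.118%) in CTX, and lowered it at 47 (0.309%) in MGE and 12 (0.079%) in CTX. In MGE 142 of the 199 genes that rose had no called base in either unstimulated library, and in CTX 13 of 18. Without adjustment 1262 genes (8.31%) were higher and 758 (4.99%) lower with KCl in MGE at p under 0.05, against 934 (6.15%) and 527 (3.47%) in CTX. These counts do not compare the cultures, since a gene past the threshold in one culture and not in the other is not thereby shown to differ. At 7 genes both responses passed in the same direction: Fosb, Atf3, Ppfia2, Fam71a, Ndufb4c, Plcd1 and Dlec1. Windows of neighbouring genes can hold the same peaks, so these 7 genes need not be 7 separate places in the genome.

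Nr4a2 encodes an orphan nuclear receptor that is an immediate early gene in many neurons. Its span is at chr2:57106830-57124003 (mm10). The window had 163 and 168 bp per Mb in the MGE KCl libraries and no called base in either MGE unstimulated library, against 155 and 139.7 bp per Mb in the CTX KCl libraries and 88.8 and 86.4 in the CTX unstimulated libraries. The KCl libraries of both cultures reached similar levels, and the groups stood apart in the unstimulated state. The response was 7.38 ± 0.34 in MGE and 0.74 ± 0.34 in CTX (log2, SE, n = 2 libraries per group), and the difference of 6.64 ± 0.48 had an adjusted p of 0.00362 with limma. On the linear scale the mean rose by 165 bp per Mb in MGE, against a CTX difference of 59.5 bp per Mb.

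The peaks behind this value form separate stretches. A stretch inside Nr4a2 at chr2:57115133-57117545 was covered over 1619 and 1912 bp in MGE KCl, 0 bp in both MGE unstimulated libraries, 1968 and 2389 bp in CTX KCl, and 611 and 1303 bp in CTX unstimulated. A stretch over the start of the gene, chr2:57122918-57124669, was covered over 520 and 1079 bp in MGE KCl and 0 bp in MGE unstimulated, against 1197 and 1730 bp in CTX KCl and 809 and 953 bp in CTX unstimulated. A stretch 13.6 kb above the gene span had 886 and 950 bp in MGE KCl and 0 bp in MGE unstimulated, and 349 and 1031 bp in CTX KCl and 671 and 808 bp in CTX unstimulated. Each of these 3 stretches was thus called in both CTX unstimulated libraries and in neither MGE unstimulated library. The remaining stretches of the window differed from them in CTX. The stretch chr2:57114380-57114907 had 0 and 398 bp in MGE KCl, 425 and 528 bp in CTX KCl, and 0 bp in all 4 unstimulated libraries. At chr2:57139461-57140604 there were 468 and 1035 bp in MGE KCl and 0 bp in MGE unstimulated, against 457 and 570 bp in CTX KCl and 0 and 647 bp in CTX unstimulated. The strongest Nr4a2 peak had a −log10 q, as the authors deposited it, of 12.4 and 14.2 in MGE KCl, 11.0 and 15.4 in CTX KCl, and 4.14 and 10.5 in CTX unstimulated. LOC105244150 at chr2:57123334-57124694 has the same values because its window holds the same peaks, so the assignment of these peaks to either gene is uncertain. With called bases counted for the nearest gene only, the Nr4a2 difference was 4.75 and did not pass (limma adjusted p = 0.0735).

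Start regions of 5 genes on which the results turn are shown so that the called stretches can be read against the sequence beneath them. Each holds 250 bases before and 50 bases after a RefSeq transcript start (GRCm38.p6, the assembly of mm10), given 5′ to 3′ on the strand of the gene. Capitals mark TGANTCA, the core of the AP-1 site to which Fos and Jun proteins bind. Nr4a2 is at chr2:57123954-57124253 on the minus strand, Bdnf at chr2:109676782-109677081 and chr2:109694159-109694458 on the plus strand, Igf1 at chr10:87860861-87861160 on the plus strand, Atf3 at chr1:191183284-191183583 on the minus strand and Acan at chr7:79052976-79053275 on the plus strand. Bdnf has several starts, of which the lower one shown holds TGANTCA and the upper one was covered in both CTX KCl libraries.
Nr4a2: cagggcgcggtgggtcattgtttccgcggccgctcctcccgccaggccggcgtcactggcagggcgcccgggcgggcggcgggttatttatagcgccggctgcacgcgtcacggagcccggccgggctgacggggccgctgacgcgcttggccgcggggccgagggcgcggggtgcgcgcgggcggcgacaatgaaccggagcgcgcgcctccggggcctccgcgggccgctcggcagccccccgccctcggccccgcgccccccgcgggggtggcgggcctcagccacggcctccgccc
Bdnf lower start: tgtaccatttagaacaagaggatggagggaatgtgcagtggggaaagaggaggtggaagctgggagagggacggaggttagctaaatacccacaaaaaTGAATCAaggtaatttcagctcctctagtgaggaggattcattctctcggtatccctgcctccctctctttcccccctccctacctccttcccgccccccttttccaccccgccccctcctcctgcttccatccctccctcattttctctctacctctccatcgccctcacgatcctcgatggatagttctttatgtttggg
Bdnf upper start: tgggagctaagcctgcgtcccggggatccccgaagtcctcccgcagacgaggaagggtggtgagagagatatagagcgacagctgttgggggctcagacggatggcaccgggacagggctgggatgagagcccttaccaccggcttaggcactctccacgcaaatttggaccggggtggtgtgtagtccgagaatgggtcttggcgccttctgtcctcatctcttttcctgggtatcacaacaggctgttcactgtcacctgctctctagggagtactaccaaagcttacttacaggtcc
Igf1: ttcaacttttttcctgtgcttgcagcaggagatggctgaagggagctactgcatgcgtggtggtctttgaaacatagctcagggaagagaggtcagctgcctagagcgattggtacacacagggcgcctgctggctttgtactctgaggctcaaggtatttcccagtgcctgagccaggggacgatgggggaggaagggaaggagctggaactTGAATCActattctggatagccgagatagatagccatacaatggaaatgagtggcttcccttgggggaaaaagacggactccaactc
Atf3: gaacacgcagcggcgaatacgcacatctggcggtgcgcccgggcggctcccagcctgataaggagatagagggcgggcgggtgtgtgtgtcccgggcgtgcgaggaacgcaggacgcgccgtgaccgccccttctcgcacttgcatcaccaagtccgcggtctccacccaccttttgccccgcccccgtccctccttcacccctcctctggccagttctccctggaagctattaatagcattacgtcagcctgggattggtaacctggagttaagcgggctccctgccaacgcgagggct
Acan: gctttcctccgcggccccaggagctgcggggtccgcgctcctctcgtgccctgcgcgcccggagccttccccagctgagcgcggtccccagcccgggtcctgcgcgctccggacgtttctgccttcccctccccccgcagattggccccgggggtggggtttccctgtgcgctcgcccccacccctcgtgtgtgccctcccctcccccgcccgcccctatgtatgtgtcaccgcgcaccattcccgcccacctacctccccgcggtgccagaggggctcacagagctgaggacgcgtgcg

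TGANTCA was searched on both strands, and so was TGACGTCA, the full cAMP response element. Among 21045 RefSeq start regions of this length, 1481 (7.04%) hold TGANTCA and 475 (2.26%) hold TGACGTCA. Of the 6 regions shown, those of Igf1 and of the lower Bdnf start each hold TGANTCA and none holds TGACGTCA. A match is a description of letters and not a binding site. The Nr4a2 region was covered over 0 and 47 bp in MGE KCl and 0 bp in both MGE unstimulated libraries, against all 300 bp in each CTX library. The Atf3 region was covered over 300 and 300 bp in MGE KCl and 0 bp in MGE unstimulated, against 178 and 300 bp in CTX KCl and 0 bp in CTX unstimulated. Called length within these 300 bases thus separated the cultures at Nr4a2, and the stimulation states at Atf3. The longer stretch over the Nr4a2 start, chr2:57122918-57124669, also separated the stimulation states in MGE. It had 520 and 1079 bp in MGE KCl and 0 bp in both MGE unstimulated libraries. The Igf1 region was covered over 5 and 300 bp in MGE KCl and 0 bp in MGE unstimulated, against 0 and 234 bp in CTX KCl and 0 bp in CTX unstimulated. The upper Bdnf region was covered over 0 bp in all 4 MGE libraries, against 300 and 300 bp in CTX KCl and 0 bp in CTX unstimulated. The lower Bdnf region was covered over 0 bp in all 4 MGE libraries and both CTX KCl libraries, and over 0 and 124 bp in CTX unstimulated.

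Sv2b encodes a synaptic vesicle glycoprotein and spans chr7:75114894-75309262. It had 47.7 and 38.5 bp per Mb in MGE KCl and no called base in MGE unstimulated, against 144 and 237 bp per Mb in CTX KCl and 208 and 269.7 in CTX unstimulated. The CTX groups overlapped, and both CTX levels exceeded the MGE KCl level. The response was 5.45 ± 0.40 in MGE and -0.36 ± 0.40 in CTX, and the difference was 5.81 ± 0.57 (adjusted p = 0.0223). The one stretch called in both MGE KCl libraries, chr7:75210855-75211339 inside the gene, was covered over 415 and 481 bp there and over 0 bp in each of the other 6 libraries. The stretch at the upper end of the gene, chr7:75307456-75309419, had 0 bp in all MGE libraries, 470 and 1964 bp in CTX KCl, and 845 and 1649 bp in CTX unstimulated. The Sv2b value therefore compared different stretches of the same window.

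4930447A16Rik spans chr15:37424068-37440841. It had 53.9 and 58.8 bp per Mb in MGE KCl and no called base in MGE unstimulated, against 88.9 and 137 bp per Mb in CTX KCl and 127 and 119.7 in CTX unstimulated, and the difference was 6.0 ± 0.59 (adjusted p = 0.0223). A stretch 16.6 kb above the span, chr15:37457432-37460158, was covered over 1157 and 1580 bp in MGE KCl, 0 bp in MGE unstimulated, 1784 and 2727 bp in CTX KCl, and 1226 and 1564 bp in CTX unstimulated. It lies near one edge of the window, so a narrower window would leave it out. No other stretch of the window was called in MGE KCl replicate 1. With called bases counted for the nearest gene only, the difference at 4930447A16Rik was 2.39 and did not pass (limma adjusted p = 0.877).

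**Figure D2:**
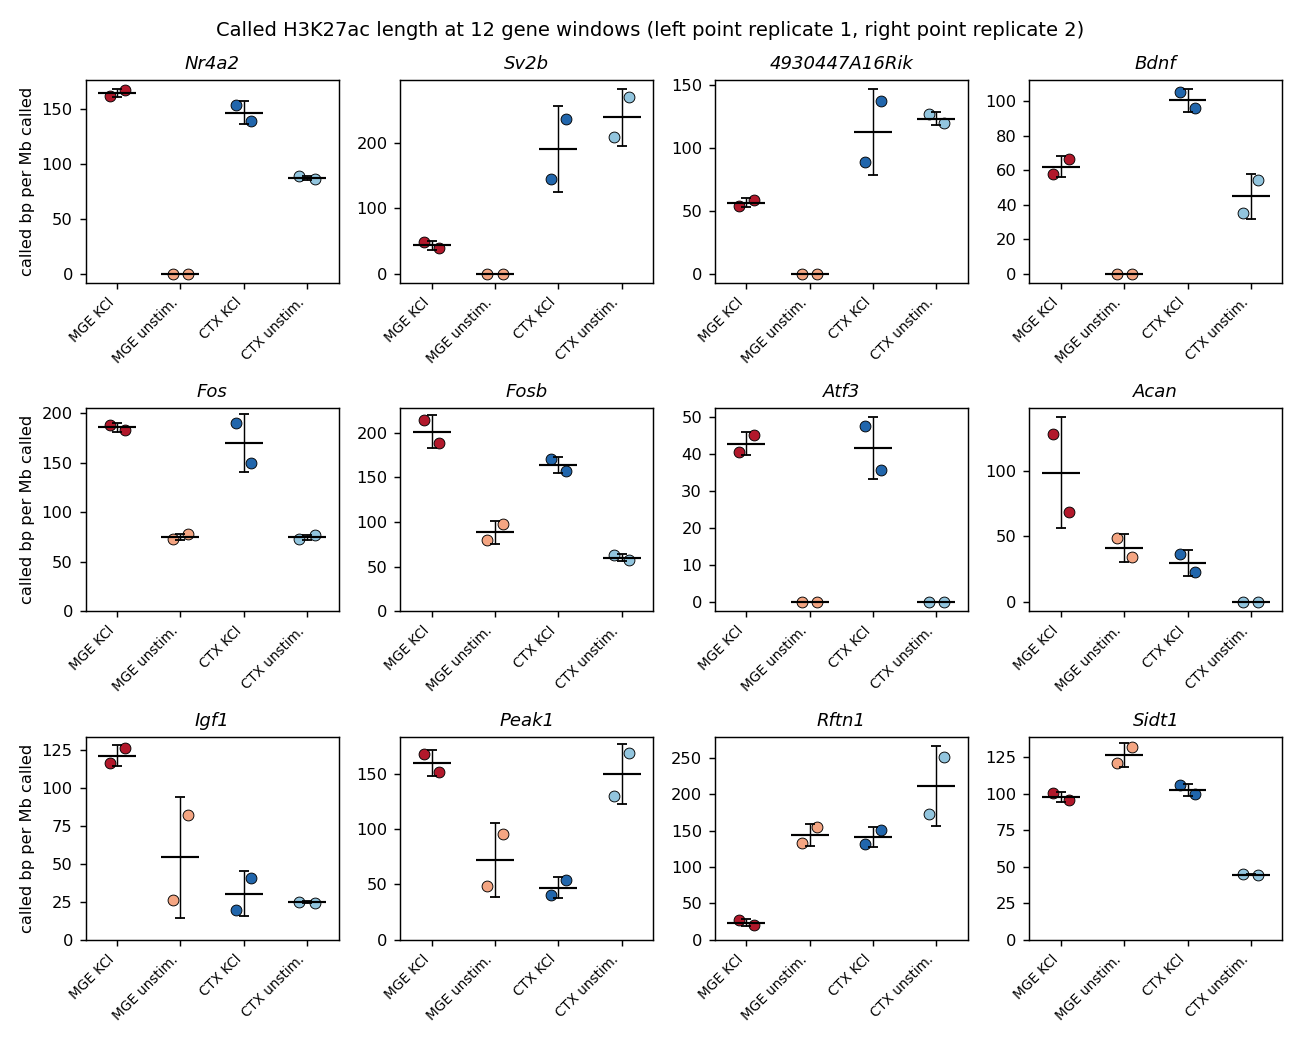
Called bp per Mb called at 12 gene windows, with each point a library, horizontal bars the group means and error bars the SD (n = 2). At Nr4a2, Sv2b, 4930447A16Rik and Bdnf both MGE unstimulated libraries are at 0 while both CTX unstimulated libraries are above 0.

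The plot of libraries sets these genes beside Fos, Fosb and Atf3, where the cultures have alike patterns, and beside genes with a negative difference. Bdnf, a neurotrophin whose transcription depends on activity in glutamatergic neurons, fell short of the threshold. It had 57.9 and 66.4 bp per Mb in MGE KCl and no called base in MGE unstimulated, against 105 and 95.8 in CTX KCl and 35.3 and 54.1 in CTX unstimulated. Its difference was 4.80 ± 0.67 on the log2 scale (limma adjusted p = 0.0869), and on the linear scale the MGE response of 62.1 bp per Mb exceeded the CTX response of 55.8 by 6.36. The exact two-sided permutation p was 0.333, where 36 relabellings of KCl and unstimulated libraries within cultures allow no p below 0.0556. Such relabelling takes KCl to have no effect in either culture. Where both responses have the same sign, swapping the labels of one culture gives a larger value than the observed difference, so the lowest p cannot be reached. This p, and the exact p of Igf1, Fos and Npas4 below, therefore cannot decide whether the responses differ. The large log2 value and the small linear one describe the same peaks, which in MGE start from 0.

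Within Bdnf the stretch chr2:109676958-109678805 was covered over 1243 and 1386 bp in MGE KCl and 0 bp in MGE unstimulated, against 1235 and 1442 bp in CTX KCl and 832 and 1769 bp in CTX unstimulated. A stretch over later starts, chr2:109692551-109694585, had 0 and 741 bp in MGE KCl and 0 bp in MGE unstimulated, and 1467 and 2035 bp in CTX KCl and 0 and 556 bp in CTX unstimulated. A stretch 15.7 kb above the gene, chr2:109742689-109743673, was called in both CTX KCl libraries (291 and 808 bp) and in none of the other 6. KCl libraries of the 2 cultures thus shared the first stretch, and the last was listed in CTX alone.

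**Figure D3:**
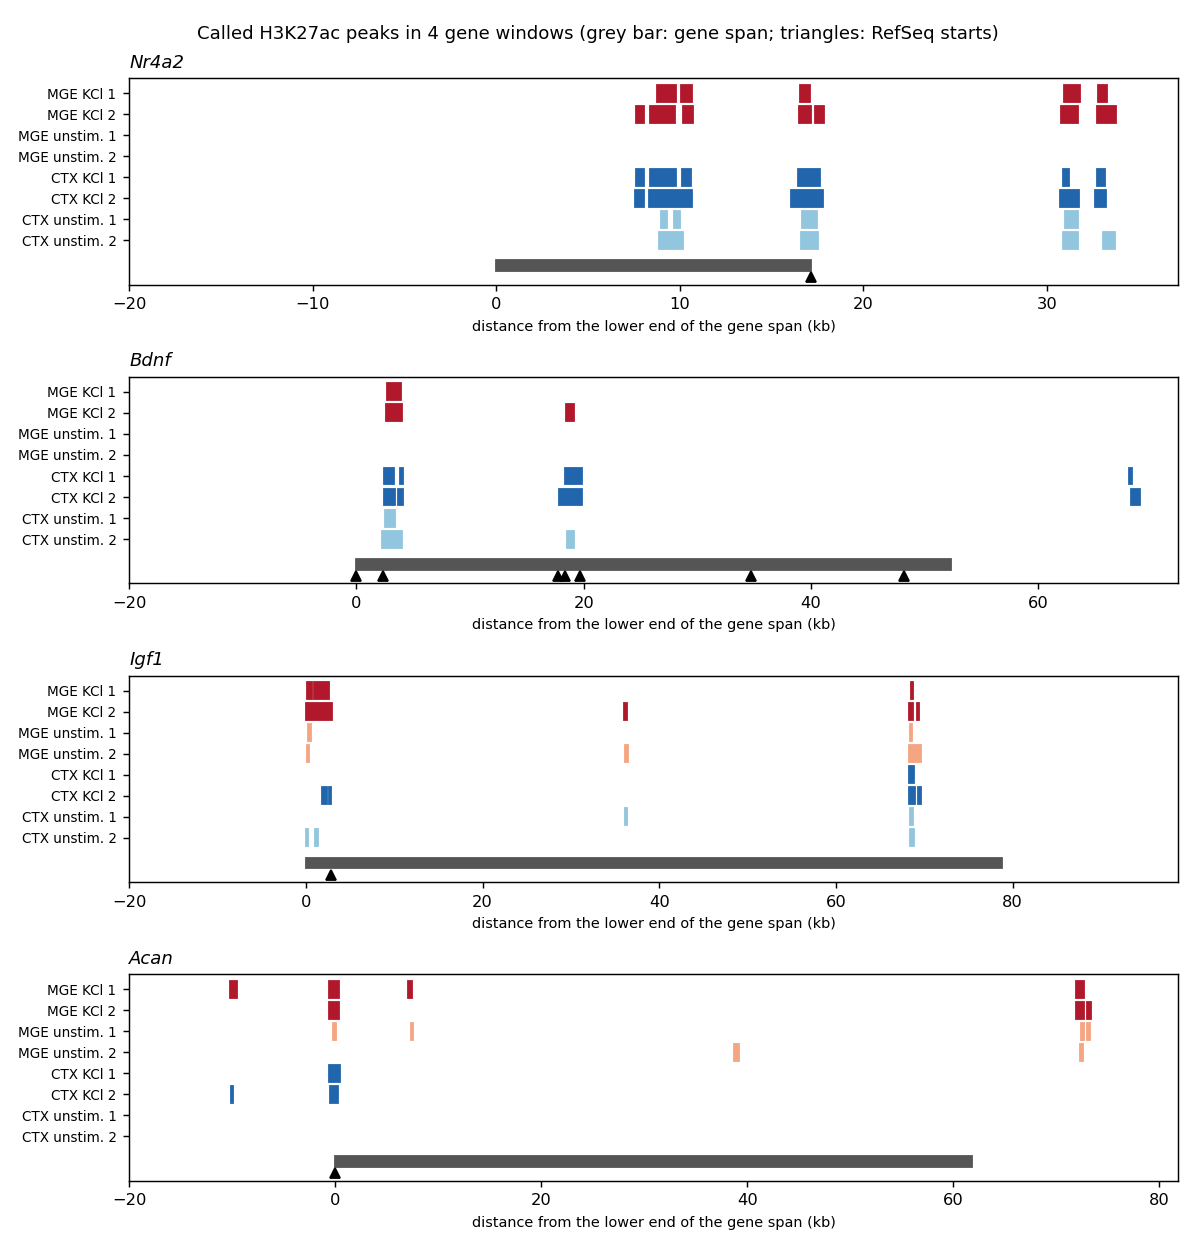
Peaks of the 8 libraries in the windows of Nr4a2, Bdnf, Igf1 and Acan, drawn to scale by distance in kb from the lower end of the gene span (grey bar), with triangles at RefSeq starts. Both MGE unstimulated rows are empty at Nr4a2 and Bdnf, and both CTX unstimulated rows are empty at Acan.

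The map of peaks shows at Acan the reverse of Nr4a2. Acan encodes aggrecan, the main proteoglycan of the perineuronal nets around parvalbumin interneurons. It had 128 and 68.4 bp per Mb in MGE KCl versus 48.9 and 33.9 in MGE unstimulated, against 36.7 and 22.7 in CTX KCl and no called base in either CTX unstimulated library. KCl libraries lay above unstimulated ones in both cultures, and the CTX response of 4.90 ± 0.58 passed its own test (adjusted p = 0.0295) while that of MGE, 1.18 ± 0.58, did not (adjusted p = 0.438). The difference was -3.72 ± 0.82 (adjusted p = 0.209), but on the linear scale it was positive, at 27.2 bp per Mb. The start region shown above was covered over 300 and 300 bp in MGE KCl versus 279 and 0 bp in MGE unstimulated, against 300 and 300 bp in CTX KCl and 0 bp in CTX unstimulated. A stretch 10.0 kb above the gene span, chr7:79125132-79125937, was called in MGE alone, over 772 and 802 bp with KCl and 290 and 265 bp unstimulated.

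Igf1 encodes insulin-like growth factor 1. It had 117 and 126 bp per Mb in MGE KCl versus 26.2 and 82.6 in MGE unstimulated, against 19.9 and 40.9 in CTX KCl and 25.1 and 24.4 in CTX unstimulated. Both MGE KCl libraries lay above both MGE unstimulated libraries, and the CTX groups overlapped. The responses were 1.36 ± 0.56 in MGE and 0.20 ± 0.56 in CTX, and their difference of 1.16 ± 0.79 did not pass (limma adjusted p = 0.980; exact permutation p = 0.444). The stretch over the start, chr10:87858234-87861283, was covered over 2221 and 3050 bp in MGE KCl versus 318 and 284 bp in MGE unstimulated, against 0 and 786 bp in CTX KCl and 0 and 552 bp in CTX unstimulated. At this stretch the MGE KCl libraries stood above the other 6, whereas the whole window also took in peaks at the far end of the gene that all 4 groups had.

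Immediate early transcription factors are switched on by calcium signals without new protein synthesis. Of 23 listed, 22 were tested, and the response was positive at 19 of 22 in MGE and at 19 of 22 in CTX, with medians of 0.82 and 0.54 on the log2 scale, against medians of 0.00 and 0.09 over all genes. In MGE 6 rose past the threshold (1.31% of all genes did), and in CTX 2, Fosb and Atf3 (0.118% of all genes). The difference of responses was positive at 16 and negative at 6, with a median of 0.14, between -0.01 and 0.28 with one library left out, against -0.07 over all genes. It passed at Nr4a2 only, and the libraries stood apart at 3 of 22 genes towards a higher and at 0 towards a lower response in MGE, against 8.56% and 9.53% of all genes. Those 3 were Nr4a1, Nr4a2 and Csrnp1.

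Fos, the AP-1 factor used most as a marker of activity, had 189 and 183 bp per Mb in MGE KCl versus 73.1 and 77.6 in MGE unstimulated, against 190.2 and 149.5 in CTX KCl and 72.6 and 76.5 in CTX unstimulated. Its responses were 1.29 ± 0.20 in MGE (adjusted p = 0.0184) and 1.17 ± 0.20 in CTX (adjusted p = 0.0775), and they differed by 0.12 ± 0.28 (exact permutation p = 0.889). Fosb had 214 and 188 bp per Mb in MGE KCl versus 79.4 and 97.5 in MGE unstimulated, against 170.4 and 157 in CTX KCl and 63.0 and 57.4 in CTX unstimulated. It rose in both cultures, by 1.18 ± 0.20 in MGE (adjusted p = 0.0266) and 1.43 ± 0.20 in CTX (adjusted p = 0.0416), and the difference of -0.25 ± 0.28 turned to 8.92 bp per Mb on the linear scale. At both genes KCl libraries lay clear of unstimulated ones in each culture, and the cultures overlapped in their responses.

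Atf3, a stress and activity-induced bZIP factor at chr1:191170296-191183333, was listed only after KCl. It had 40.6 and 45.1 bp per Mb in MGE KCl and 47.5 and 35.7 in CTX KCl, and no called base in any of the 4 unstimulated libraries. It rose in MGE (adjusted p = 0.0123) and in CTX (adjusted p = 0.0369), and the difference was 0.05 ± 1.03. Its peaks form a single stretch over the start, chr1:191182669-191184453, covered over 872 and 1444 bp in MGE KCl and 1350 and 1596 bp in CTX KCl.

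Npas4, a neuron-specific factor driven by calcium entry, had 187 and 134 bp per Mb in MGE KCl versus 74.3 and 94.6 in MGE unstimulated, against 121 and 97.2 in CTX KCl and 79.1 and 54.8 in CTX unstimulated. Its difference was 0.20 ± 0.39 (exact permutation p = 0.833). Egr1, a zinc finger factor, had a difference of 0.48 ± 0.47, and Nr4a3, a relative of Nr4a2, one of 0.22 ± 0.41. At all 3 genes the KCl libraries lay above the unstimulated ones in both cultures, without a response past the threshold in either.

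Nr4a1, the third receptor of this family, had 203 and 174 bp per Mb in MGE KCl versus 60.9 and 53.2 in MGE unstimulated, against 278 and 191 in CTX KCl and 142 and 126 in CTX unstimulated. It rose in MGE by 1.71 ± 0.23 (adjusted p = 0.0123), and the difference of 0.92 ± 0.32 did not pass (adjusted p = 0.605). Csrnp1, another immediate early nuclear factor, had 13.5 and 14.1 bp per Mb in MGE KCl and no called base in MGE unstimulated, against 44.9 and 91.6 in CTX KCl and 48.3 and 70.7 in CTX unstimulated. Like Nr4a2, both were lower in MGE unstimulated than in CTX unstimulated libraries.

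Of 25 immediate early effectors and signal regulators, which include feedback phosphatases and synaptic proteins, none passed in the difference, 15 were positive and the median was 0.20. The extremes were Dusp6, a phosphatase that switches off ERK, at 4.31 ± 1.44 (adjusted p = 0.567), and Nfkbia, the NF-κB inhibitor, at -0.87 ± 0.57 (adjusted p = 0.980). Dusp6 had 52.5 and 95.4 bp per Mb in MGE KCl versus 0 and 12.6 in MGE unstimulated, against 77.0 and 65.3 in CTX KCl and 82.6 and 63.1 in CTX unstimulated. Arc, which controls AMPA receptor traffic, had 54.3 and 63.1 bp per Mb in MGE KCl versus 0 and 18.1 in MGE unstimulated, against 20.4 and 47.9 in CTX KCl and 0 and 11.4 in CTX unstimulated, with a difference of 0.57 ± 2.14. In each culture 1 unstimulated library of Arc was at 0, and the error was larger than the value.

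The late activity-regulated genes were divided. Of 23 tested, 13 were positive and 10 negative with a median of 0.06, none passed, and libraries stood apart at 3 of 23 in each direction, against 8.56% of all genes towards higher and 9.53% towards lower. Nptx1, a neuronal pentraxin that gathers AMPA receptors, was at the upper end with 5.06 ± 1.75 and Acan at the lower. Nptx1 had 67.1 and 72.4 bp per Mb in MGE KCl versus 18.5 and 0 in MGE unstimulated, against 10.6 and 44.4 in CTX KCl and 41.2 and 52.7 in CTX unstimulated. A stretch 17.1 kb above Nptx1, chr11:119564928-119566028, was called in MGE alone, over 640 and 987 bp with KCl and 425 and 0 bp unstimulated. One 9.11 kb below was called in CTX alone, over 0 and 971 bp with KCl and 971 and 1522 bp unstimulated. The stretch in the gene had 802 and 999 bp in MGE KCl and 0 bp in MGE unstimulated, against 301 and 1014 bp in CTX KCl and 0 and 742 bp in CTX unstimulated. The Nptx1 value thus compared partly different stretches. Nptx2, its relative, had a difference of 2.32 ± 1.68, and Scg2, a granin of dense-core vesicles, one of -0.83 ± 0.63 that became 5.53 bp per Mb on the linear scale.

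Among candidates for activity regulation in GABAergic neurons, 12 of 16 listed genes were tested, 6 were positive and 6 negative, none passed, and the median was 0.24. Pthlh, a peptide hormone of some interneurons, had 59.3 and 106 bp per Mb in MGE KCl versus 19.0 and 0 in MGE unstimulated, against 10.8 and 0 in CTX KCl and 13.9 and 25.6 in CTX unstimulated. The difference was 6.70 ± 2.15 (adjusted p = 0.519). Its start, chr6:147263007-147264664, was called over 459 and 1658 bp in MGE KCl and over 0 bp in each of the other 6 libraries. Crhbp, which binds corticotropin-releasing hormone and is found in somatostatin interneurons, had 104 and 183 bp per Mb in MGE KCl versus 22.3 and 59.7 in MGE unstimulated, against 53.2 and 50.4 in CTX KCl and 0 and 20.7 in CTX unstimulated. Its difference of -1.62 ± 1.72 on the log2 scale became 60.8 bp per Mb on the linear scale, and both KCl groups lay above their unstimulated groups.

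The AP-1, CREB, NFAT and MEF2 factors carry the signal to chromatin. Of 24 tested, 5 had a positive and 19 a negative difference, where 56.5% of all genes were negative, with a median of -0.16, and none passed. Medians were 0.14 for the MGE response and 0.45 for the CTX response, and libraries stood apart at 0 genes towards a higher and at 3 towards a lower response in MGE, close to the 9.53% of all genes. Nfatc2, a calcineurin-dependent factor, was lowest at -1.16 ± 0.74, and Nfatc1 was highest at 1.77 ± 1.88, a value that turned to -4.03 bp per Mb on the linear scale.

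**Figure D4:**
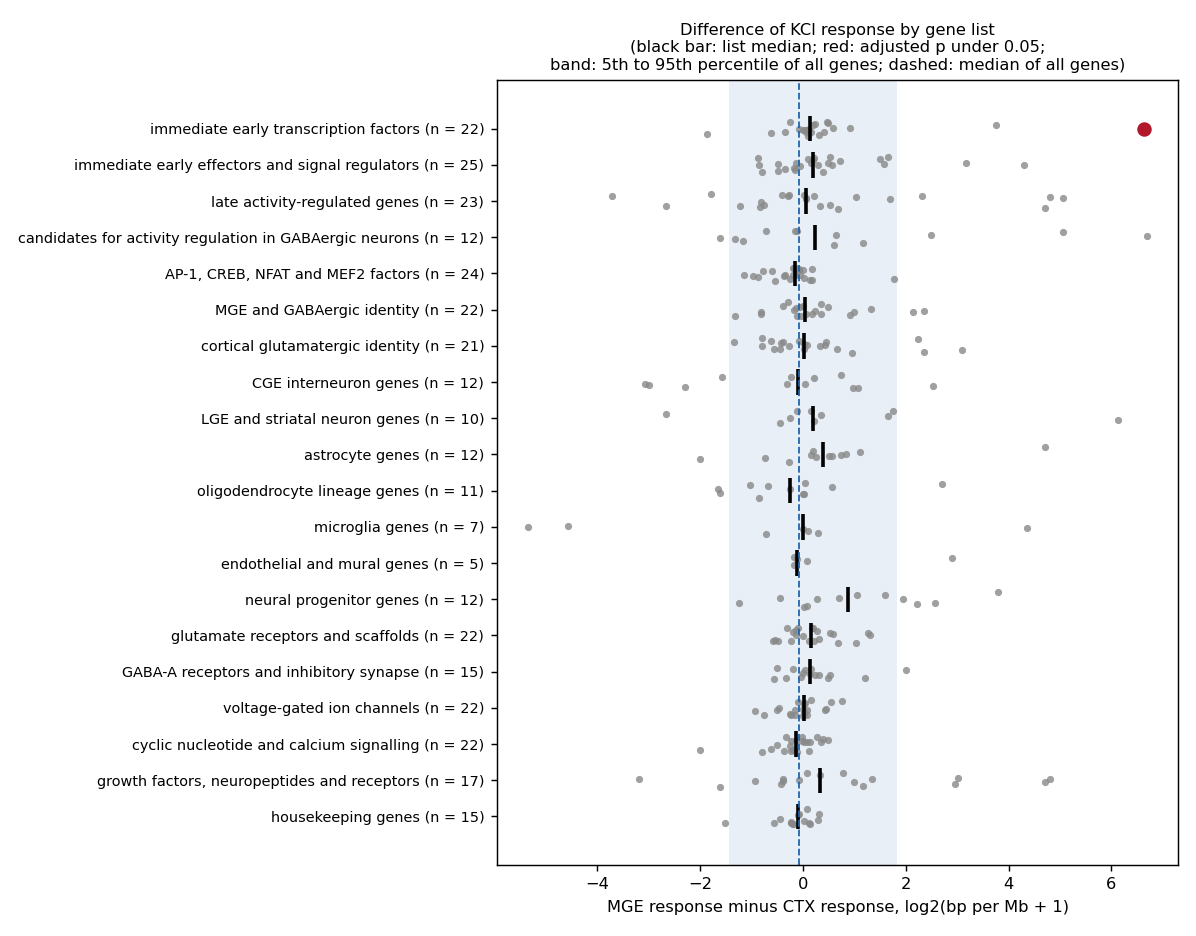
Difference of KCl response, MGE minus CTX, in log2(bp per Mb + 1) for the genes of 20 lists, with each point a gene, black bars the list medians, the band the 5th to 95th percentile of all genes and the dashed line their median of -0.07. Nr4a2 (red) is the one gene of these lists that passed, and the list medians run from -0.26 to 0.88.

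The plot of gene lists shows that most list medians lie within the middle range of all genes. The 22 glutamate receptor and scaffold genes had 13 positive and 9 negative values and a median of 0.15. Libraries stood apart at 6 of these 22 towards a higher and at 1 towards a lower response in MGE, against 8.56% and 9.53% of all genes. Gria1, an AMPA receptor subunit, had 275 and 203 bp per Mb in MGE KCl versus 128 and 182 in MGE unstimulated, against 96.3 and 169 in CTX KCl and 200.0 and 200.1 in CTX unstimulated. Its difference of 1.27 ± 0.43 did not pass (adjusted p = 0.569). Grin2a, an NMDA receptor subunit, had 294 and 237 bp per Mb in MGE KCl versus 122 and 139.9 in MGE unstimulated, against 153 and 205 in CTX KCl and 174 and 269 in CTX unstimulated, with a difference of 1.30 ± 0.36 (adjusted p = 0.406). At both genes MGE KCl libraries lay above MGE unstimulated ones. In CTX the KCl libraries of Gria1 lay below, and those of Grin2a overlapped the unstimulated ones.

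Of 17 growth factor, neuropeptide and receptor genes 10 were positive with a median of 0.34, which was 0.00 over the 14 without a group at 0, and libraries stood apart at 6 towards a higher and 0 towards a lower response in MGE, against 8.56% and 9.53% of all genes. Tac1, the precursor of substance P, had 34.1 and 13.4 bp per Mb in MGE KCl and no called base in MGE unstimulated, against 25.1 and 30.6 in CTX KCl and 40.4 and 25.8 in CTX unstimulated. It rose in MGE (adjusted p = 0.0191), and the difference of 4.71 ± 0.97 did not pass (adjusted p = 0.174). Igfbp5, which binds insulin-like growth factors, was lowest of the list at -3.20 ± 1.92.

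GABA-A receptor and inhibitory synapse genes (15 tested, median 0.13), voltage-gated ion channels (22 tested, median 0.02) and genes of cyclic nucleotide and calcium signalling (22 tested, median -0.13) held no gene that passed. Cacna1d, an L-type calcium channel, had 143 and 96.3 bp per Mb in MGE KCl versus 269 and 237 in MGE unstimulated, against 194 and 193 in CTX KCl and 206 and 229 in CTX unstimulated. It fell in MGE by 1.10 on the log2 scale (adjusted p = 0.0498), and the difference was -0.93 ± 0.30 (adjusted p = 0.528). Housekeeping genes had a median of -0.10 (15 tested), close to that of all genes.

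By median, MGE and cortical identity genes were near the background. MGE and GABAergic identity genes had a median difference of 0.03 (22 tested, 12 positive) and cortical glutamatergic identity genes one of 0.01 (21 tested, 11 positive), with 0 genes past the threshold in either list. Libraries stood apart at 1 MGE identity gene towards a higher and at 1 towards a lower response in MGE. For cortical identity genes these counts were 0 and 4 of 21, against 8.56% and 9.53% of all genes. Lists of other cell types had medians of -0.10 for CGE interneurons, 0.19 for LGE and striatal neurons, 0.38 for astrocytes, -0.26 for the oligodendrocyte lineage, 0.00 for microglia, -0.11 for endothelial and mural cells, and 0.88 for neural progenitors. The progenitor median was 0.27 over the 9 genes without a group at 0, and the astrocyte median 0.26 over 9 such genes. Of 12 genes each, 10 progenitor and 9 astrocyte genes were positive, against 6600 of the 15191 genes tested. Libraries stood apart towards higher and lower at 3 and 0 of 12 astrocyte, 1 and 2 of 12 progenitor and 0 and 3 of 7 microglial genes. These counts were 2 and 1 of 12 for CGE, 3 and 1 of 10 for LGE and striatal, 1 and 2 of 11 for oligodendrocyte lineage, and 1 and 0 of 5 for endothelial and mural genes. Sox9, a glial and progenitor factor, rose in MGE (adjusted p = 0.00666): it had 35.4 and 44.5 bp per Mb in MGE KCl and no called base in MGE unstimulated, against 52.3 and 61.6 in CTX KCl and 26.8 and 48.9 in CTX unstimulated. Its difference of 4.71 ± 0.79 did not pass (adjusted p = 0.121).

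Marker lengths of other cells differed between libraries. Summed over 4 astrocyte markers they were 112 and 218 bp per Mb in MGE KCl versus 127 and 107 in MGE unstimulated, against 392 and 409 in CTX KCl and 366 and 397 in CTX unstimulated. The sum of 4 progenitor markers was 260.3 and 391 in MGE KCl versus 255 and 238 in MGE unstimulated, against 322 and 414 in CTX KCl and 347 and 409 in CTX unstimulated. The 5 LGE and striatal markers summed to 363 and 505 in MGE KCl versus 172 and 210.1 in MGE unstimulated, against 644 and 926 in CTX KCl and 497 and 802 in CTX unstimulated. The 4 oligodendrocyte lineage markers summed to 65.6 and 135.5 in MGE KCl versus 65.3 and 70.6 in MGE unstimulated, against 374 and 429 in CTX KCl and 297 and 395 in CTX unstimulated. Cortical glutamatergic markers summed to 65.4 and 209.9 in MGE KCl versus 99.1 and 95.2 in MGE unstimulated, against 487 and 733 in CTX KCl and 419 and 681 in CTX unstimulated. In the cortical, oligodendrocyte, astrocyte, progenitor, and LGE and striatal sums MGE KCl replicate 2 was the highest MGE library. In the progenitor and the LGE and striatal sums both MGE KCl libraries lay above both MGE unstimulated ones. The 5 CGE markers summed to 206.4 and 235.1 in MGE KCl versus 238.3 and 318.5 in MGE unstimulated, against 392.9 and 419.5 in CTX KCl and 349.9 and 497.5 in CTX unstimulated. Of 3 microglial markers Cx3cr1 had no called base in any library, Csf1r had 31.3 to 77.7 bp per Mb in the MGE libraries and none in the CTX libraries, and Aif1 had 50.4 to 96.8 bp per Mb over all 8. The 3 microglial markers summed to 139.7 and 106 in MGE KCl versus 175 and 133 in MGE unstimulated, against 68.4 and 50.4 in CTX KCl and 68.6 and 57.0 in CTX unstimulated. Of 4 endothelial and mural markers Cldn5 and Kdr had no called base in any library, Pecam1 was called in all 8, and the sums were 61.1 and 112 in MGE KCl versus 112 and 111 in MGE unstimulated, against 117 and 119 in CTX KCl and 151 and 139 in CTX unstimulated. The part of other cells in the differences of response was not tested.

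Beyond the lists, the 12 genes in each direction with the lowest p among those with at least 2 kb called on average and libraries standing apart were examined. Towards a higher response in MGE, after Nr4a2, Sv2b and 4930447A16Rik, none passed. Mlip, a lamin-binding protein of muscle, had 36.2 and 76.0 bp per Mb in MGE KCl and none in MGE unstimulated, against 113 and 144 in CTX KCl and 126 and 130.3 in CTX unstimulated (difference 5.75 ± 0.66, adjusted p = 0.0553). Lama2, a laminin subunit, had 13.7 and 30.2 in MGE KCl and none in MGE unstimulated, against 136 and 249 in CTX KCl and 338 and 331 in CTX unstimulated (difference 5.28 ± 0.70, adjusted p = 0.0846). Both share with Sv2b that MGE KCl lay below either CTX group. At Iqca the difference of 4.65 ± 0.62 (adjusted p = 0.0846) came from CTX: it had 75.8 and 83.6 bp per Mb in MGE KCl versus 172 and 187 in MGE unstimulated, against no called base in CTX KCl and 41.5 and 73.4 in CTX unstimulated. Iqca fell in CTX (adjusted p = 0.0105), and on the linear scale the MGE decrease was the larger, with a difference of -42.5 bp per Mb.

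Several of these genes were called in all 8 libraries and had opposite directions. Peak1, a pseudokinase of the cytoskeleton, had 168 and 151 bp per Mb in MGE KCl versus 48.6 and 95.9 in MGE unstimulated, against 40.5 and 53.7 in CTX KCl and 130.1 and 168 in CTX unstimulated. Its difference was 2.86 ± 0.47 (adjusted p = 0.118). Ndufa9, a subunit of mitochondrial complex I, had 174 and 121 in MGE KCl versus 58.0 and 54.9 in MGE unstimulated, against 37.6 and 46.1 in CTX KCl and 73.0 and 65.6 in CTX unstimulated (2.06 ± 0.38, adjusted p = 0.134). Cntnap4, an adhesion protein of interneuron synapses, had 312 and 287 in MGE KCl versus 251 and 181 in MGE unstimulated, against 69.6 and 73.7 in CTX KCl and 138 and 128 in CTX unstimulated (1.37 ± 0.28, adjusted p = 0.174). In each, KCl libraries lay above unstimulated ones in MGE and below them in CTX. Sgcd, a sarcoglycan, and Thsd4, a matrix protein, had the same arrangement with differences of 1.26 ± 0.26 and 1.42 ± 0.30.

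Towards a lower response in MGE no gene passed, and the lowest adjusted p among the 12 examined was 0.127, at Rftn1. Rftn1, a lipid raft protein, had 26.6 and 20.6 bp per Mb in MGE KCl versus 134 and 155 in MGE unstimulated, against 132 and 151 in CTX KCl and 173 and 251 in CTX unstimulated. It fell in MGE by 2.57 on the log2 scale (adjusted p = 0.00559), and the difference was -2.01 ± 0.36. Mtus2, a microtubule-associated protein, had 110.5 and 141 in MGE KCl versus 423 and 349 in MGE unstimulated, against 155 and 139.7 in CTX KCl and 160.2 and 156 in CTX unstimulated. It too fell in MGE (adjusted p = 0.00855), with a difference of -1.51 ± 0.27 (adjusted p = 0.129). At both the MGE unstimulated libraries stood above the MGE KCl libraries, and the CTX values differed in the same direction by a smaller amount.

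Sidt1, a transmembrane protein linked to RNA transport, had opposite directions in the cultures. It had 100.4 and 95.7 bp per Mb in MGE KCl versus 121 and 132 in MGE unstimulated, against 106 and 99.6 in CTX KCl and 44.9 and 44.3 in CTX unstimulated, and the difference was -1.55 ± 0.28 (adjusted p = 0.129). The stretch 13.7 kb above Sidt1, chr16:44346871-44348144, was covered over 714 and 782 bp in MGE KCl and 0 bp in MGE unstimulated, against 1185 and 1138 bp in CTX KCl and 0 and 600 bp in CTX unstimulated. A stretch just below the gene, chr16:44238985-44239998, was called in the MGE libraries alone, over 657 and 563 bp with KCl and 803 and 932 bp unstimulated. KCl libraries thus had more called length above the gene in both cultures, and the window as a whole hid this in MGE.

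Nf1, the Ras-inactivating protein neurofibromin, had 194 and 138 bp per Mb in MGE KCl versus 232 and 241 in MGE unstimulated, against 301 and 273 in CTX KCl and 179.9 and 122 in CTX unstimulated (difference -1.48 ± 0.34, adjusted p = 0.235). Dennd1b, Trmt9b, Susd1, Phlpp2, 9130023H24Rik and Inpp5a had the same arrangement, below in MGE and above in CTX, with differences between -1.19 and -1.53 and adjusted p of 0.190 to 0.290. Pibf1, a centrosomal protein, lay above in both cultures, with responses of 0.63 ± 0.22 in MGE and 2.05 ± 0.22 in CTX, of which the second passed (adjusted p = 0.0184). Hydin, a protein of motile cilia, fell in MGE by 2.35 on the log2 scale (adjusted p = 0.00540). It had 21.0 and 23.3 bp per Mb in MGE KCl versus 107 and 129 in MGE unstimulated, against 144 and 189 in CTX KCl and 383 and 309 in CTX unstimulated, so its log2 difference of -1.30 ± 0.32 became 84.3 bp per Mb on the linear scale.

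**Figure D5:**
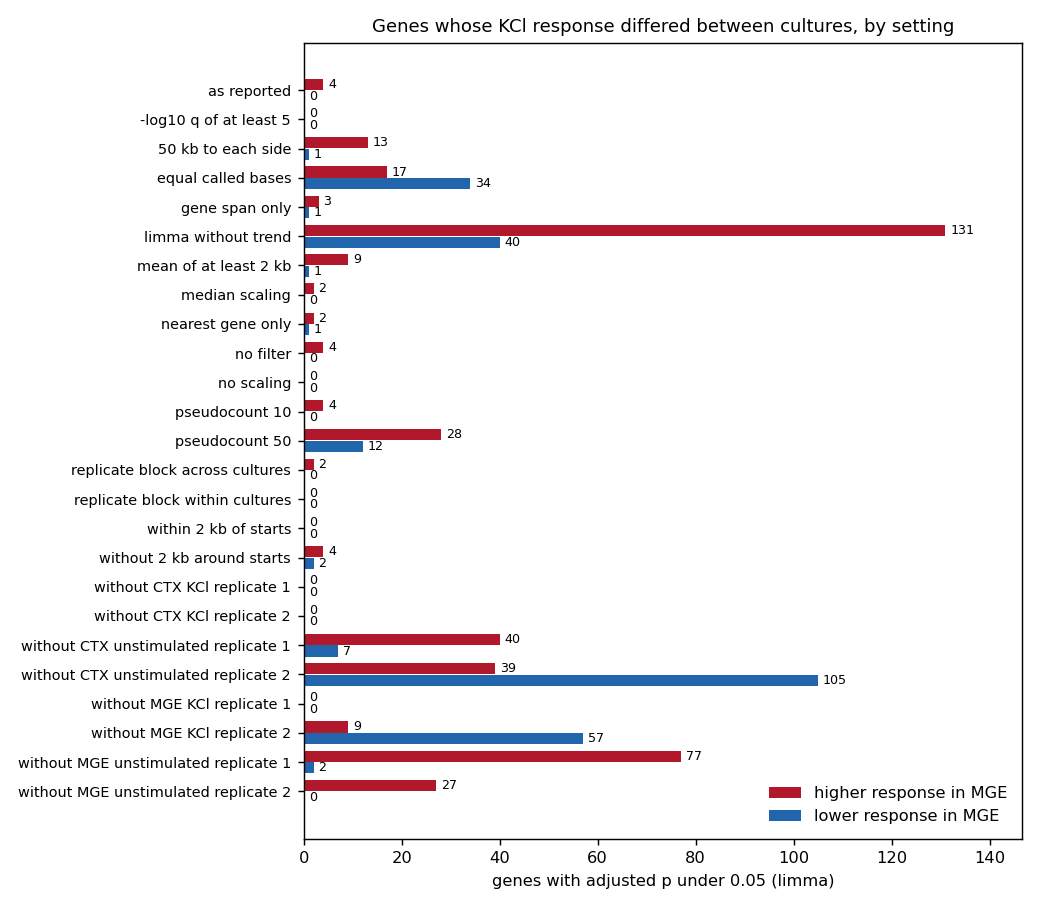
Number of genes whose KCl response passed as higher (red) or lower (blue) in MGE than in CTX, at an adjusted p under 0.05 with limma, as reported and under each alternative setting. The counts run from 0 to 131 for higher and from 0 to 105 for lower.

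The plot of counts by setting shows how far the number of called genes depended on single libraries and on how the peaks were counted. Leaving out CTX KCl replicate 1, CTX KCl replicate 2 or MGE KCl replicate 1 gave 0 genes in either direction. Leaving out CTX unstimulated replicate 2 gave 39 higher and 105 lower, and leaving out MGE unstimulated replicate 1 gave 77 higher and 2 lower. With the other leave-outs the counts were 40 and 7 without CTX unstimulated replicate 1, 9 and 57 without MGE KCl replicate 2, and 27 and 0 without MGE unstimulated replicate 2. With peaks of a −log10 q of at least 5, as the authors deposited it, no gene passed and the difference at 4930447A16Rik was -4.02. Nr4a2 passed under 16 of 24 alternatives, with adjusted p between 0.00123 and 1.00, Sv2b under 13 of 24 (0.00353 to 1.00) and 4930447A16Rik under 10 of 22 (0.00239 to 1.00). The difference at Nr4a2 was positive under all 24, between 1.59 and 11.2.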

How the data were processed

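H3K27ac ChIP-seq peak lists of 8 libraries were used, grouped by their titles. Tools named in the submitters' processing notes are MACS3 3.0.0a7, Bowtie2 2.3.3, deepTools 3.4.3 and cutadapt 1.18, and the build is mm10. Which step each tool did, and with which settings, is not given in the sources used here. Per the file headers and columns, each list is in broad-peak format and was called per library, with a score, a fold enrichment (a linear ratio), a −log10 p and a −log10 q for each peak, as the authors deposited them. These values belong to the peak and were used only to describe or filter peaks within a list. Read counts were not used here, so depth is unknown.

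Peaks of each library were counted as listed, without merging. For the stretches described at single genes, overlapping peaks were merged across libraries. Gene spans and the 300-base start regions came from RefSeq (GRCm38.p6), and 17274 of 21631 genes had a start region. Called bp per Mb called were taken as log2(value + 1) and fitted over the 4 groups in limma 3.58.1 (R 4.3.3) with a mean-variance trend, and p-values were adjusted by Benjamini-Hochberg over 15191 genes. Tables were made with Python 3.11.15, pandas 2.3.3 and scipy 1.17.1. The script was tested on simulated data. The genes named are a fixed set of activity-regulated genes, the members of each of 20 lists that passed or else its highest and lowest member, and the 12 genes in each direction with the lowest p among those with a mean of at least 2 kb called and libraries standing apart, skipping overlapping windows. Lhx6, Neurod6, Gad1, Sox6, Slc17a7, Slc32a1, the Dlx markers, Nr4a1, Csrnp1, Arc, Gria1 and Tac1, and genes named to fill a count, were chosen after their values were seen. The genes, lists and tests were chosen with earlier results of these data known. Some genes that this rule names are not reported here. Alternatives changed the peak threshold, the window, the scaling, the added constant, the filter, the model and the libraries left out.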

Additional observations from a re-analysis of the deposited data

Results flagged for a closer look

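At 4 genes the KCl responses of the cultures differed by a test of the difference itself (limma, adjusted p under 0.05): Nr4a2 (6.64), LOC105244150 with the same peaks (6.64), Sv2b (5.81) and 4930447A16Rik (6.0), all on the log2 scale, MGE minus CTX. All 4 had no called base in either MGE unstimulated library, so their values and adjusted p depend on the peak threshold.

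Among the named genes, another set drew attention because both KCl libraries lay above both unstimulated libraries in MGE and below them in CTX. Their differences were 5.28 at Lama2, 2.86 at Peak1, 2.06 at Ndufa9, 1.26 at Sgcd, 1.37 at Cntnap4, 1.42 at Thsd4, 6.70 at Pthlh and 6.13 at Adora2a. The reverse, below in MGE and above in CTX, held at Sidt1 (-1.55), Dennd1b (-1.39), Trmt9b (-1.53), Nf1 (-1.48), Susd1 (-1.31), Phlpp2 (-1.20), 9130023H24Rik (-1.31), Inpp5a (-1.19), Nfib (-1.34), Hes5 (-1.25) and Psmb2 (-1.53). Over all genes tested the first arrangement held at 188 (1.24%) and the reverse at 343 (2.26%). Most of the genes given here were named because their libraries stood apart, a choice that favours opposite directions. The opposite directions themselves were not tested. The limma test of the difference was run at each of these genes, and none passed after adjustment.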

How the results depend on the processing

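The number of genes that passed depended on the processing. Towards a higher response in MGE it was 0 with a −log10 q of at least 5, without scaling and within 2 kb of starts, 2 with median scaling and with the nearest gene only, 9 with a mean of at least 2 kb, 13 with 50 kb to each side, 17 with equal called bases, 28 with a constant of 50 and 131 with limma without its trend, and between 0 and 77 with a library left out. Towards a lower response it was 1 with 50 kb, the gene span only, a mean of at least 2 kb or the nearest gene only, 2 without the 2 kb around starts, 12 with a constant of 50, 34 with equal called bases and 40 without the trend, and between 0 and 105 with a library left out. Unadjusted higher calls were 316 with −log10 q of at least 5, 208 with a mean of at least 2 kb, 271 without scaling and 142 within 2 kb of starts (407 to 769 with a library left out); lower ones were 170, 245, 129 and 64, and 275 with the gene span only (286 to 783). The median of the GABAergic candidates was 2.04 with −log10 q of at least 5 and 1.03 within 2 kb of starts (0.02 to 0.85 with a library left out), that of the immediate early factors 1.13 with the gene span, 0.39 with the nearest gene and 0.65 within 2 kb of starts (-0.01 to 0.28), and the ratio of standard deviations 0.90 and 0.96 under the first pair (0.93 to 1.17). A left-out library leaves 1 in its group, which is assumed to vary like the others. The settings within and without 2 kb of starts and the linear scale were chosen after seeing the data. Deviations of same-numbered libraries correlated at 0.20, 0.22 and 0.26 in 3 of 6 pairs of groups and between -0.11 and 0.01 in the other 3, so pairing by number did not hold for every pair; with the replicate block across cultures 2 genes passed as higher, and with the block within cultures 0 (Nr4a2 adjusted p = 0.133).

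Of 1617 comparisons of 70 named genes with an alternative, 1453 kept direction and side of the threshold and 86 changed sign. With −log10 q of at least 5 the differences were -4.02 at 4930447A16Rik, -2.94 at Mlip, -0.35 at Lama2, -2.56 at Cntnap4, 1.63 at Mtus2, 0.87 at Inpp5a, 6.52 at Hydin, -0.55 at Fos, 0.75 at Fosb, -2.22 at Egr1, -0.73 at Nr4a3, -1.98 at Atf3, -2.92 at Nptx2, 1.81 at Acan, 2.19 at Crhbp, 0.63 at Nfkbia, -5.21 at Nfatc1, 3.504 at Nfatc2, 2.96 at Sst, 1.56 at Nfib, -0.80 at Sox9, -0.41 at Olig1, -6.19 at Vim, -3.85 at Ppp3ca and 0.30 at Pde1c. With 50 kb they were 0.19 at Fosb, -0.046 at Nr4a3, -0.56 at Atf3, -0.72 at Igf1, -2.23 at Nfatc1 and -0.59 at B2m, and with equal called bases -0.067 at Fos, 0.59 at Fosb, -0.086 at Nr4a3, 1.65 at Crhbp, -2.79 at Nfatc1, 0.055 at Pecam1 and -0.46 at Gabrd. The gene span gave 2.58 at Fosb, -0.019 at Nfatc1, 4.95 at Sst and -0.27 at Sox9, and the nearest gene 0.53 at Fosb and -3.02 at Gabrd. No scaling gave -0.39 at Atf3, a constant of 10 gave -0.56 at B2m, and one of 50 gave 0.006 at Acan, 0.31 at Crhbp, 0.23 at Sst and -0.39 at B2m. Within 2 kb of starts they were -0.22 at Ndufa9, 2.21 at Fosb, 0.25 at Pcsk1, 5.20 at Sst and 0.65 at Igfbp5, and without that span -0.056 at Fos, -0.008 at Igf1, 1.19 at Scg2 and 1.04 at Pcsk1. On the linear scale in bp per Mb they were -42.5 at Iqca, 84.3 at Hydin, 8.92 at Fosb, 5.53 at Scg2, 27.2 at Acan, 11.7 at Pcsk1, 60.8 at Crhbp, -4.03 at Nfatc1, 26.7 at Sst, 5.60 at Pecam1, -5.30 at Vim and -24.8 at B2m. Leaving out a library gave -0.049 to 0.30 at Fos, -0.061 to 0.46 at Npas4, -0.15 to 0.26 at Atf3, -3.84 to 0.60 at Crhbp, -0.57 to 4.10 at Nfatc1, -0.12 to 4.83 at Cxcr4, -3.31 to 0.65 at Sst, -4.46 to 0.45 at Gjb6, -0.71 to 0.34 at Pecam1, -1.65 to 0.48 at Gria3, -0.95 to 4.95 at Gabrd and -1.33 to 1.96 at B2m. The cause of these changes was not tested.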
